A study of Saccharomyces cerevisiae with 8 samples.

Results

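The return of starved yeast cells to rich medium was described from 4 TIF-seq libraries, which are 4 of the 8 libraries of the series and were chosen by their labels. The 2 T3 libraries hold RNA pooled from 15 to 120 min in YPD, a rich medium with glucose, after 6 h in sporulation medium (SPO). The 2 pm libraries hold RNA pooled from 0 to 2 h in SPO, a starvation medium, before meiosis was induced. All cells were the diploid SK1 strain FW2795, in which the CUP promoter drives IME1 (irt1::pCUP-3HA-IME1), the GAL promoter drives NDT80 (ndt80::pGAL-NDT80), and Gal4 is fused to the estrogen receptor (pGPD1-GAL4(848).ER). The T3 cells had received 50 µM CuSO4 after 2 h in SPO, which switches on IME1, and the pm cells had not. The paper places cells at 6 h in SPO in meiotic prophase, so pm is not the state that the T3 cells left. Medium, time, copper, and the passage through early meiosis therefore differ together between T3 and pm and cannot be told apart. The other 4 libraries are T1, pooled from 3 to 6 h in SPO after copper, and T2, pooled from 7 to 9 h in SPO after 1 µM β-estradiol was also added to switch on NDT80. Their values are given beside those of T3 and pm as a description. Each library mixes its time points, which cannot be told apart. T3 and pm together hold 3326019 of the 8552677 molecules on the 16 nuclear chromosomes, 1409141 in T3 and 1916878 in pm.

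Starved diploid yeast cells stop dividing and, when Ime1 is made, enter meiosis. Cells that have not yet committed to the meiotic divisions go back to mitotic growth when nutrients return, a change known as return to growth. In budding yeast, glucose and nitrogen are known to raise the production of ribosomes and to lower the expression of many genes used in starvation and respiration. TIF-seq reads both ends of single capped, polyadenylated RNA molecules after circularization of the cDNA, so that each molecule gives a transcript start site (TSS) and a transcript end site (TES). The 5′ and the 3′ ends were counted in windows of 100 nt per strand, here called 5′ bins and 3′ bins. Loci are given by their position in the SK1 assembly of the study, on which no gene annotation was used, and they therefore carry no gene names, so the pools could not be checked against marker genes.

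Depth was 856784 and 552357 molecules in T3, and 606325 and 1310553 in pm. Levels of 3871 5′ bins with a mean of at least 20 molecules correlated between the 2 T3 libraries with r = 0.937 and between the 2 pm libraries with r = 0.793, on a log2 scale across bins that are not independent. Of the molecules of the spike-in RNA pGIBS-LYS, 79.7% and 73.1% in T3, against 87.5% and 57.9% in pm, started within 5 nt of the start that most of them used, so pm replicate 2 stood apart from the other 3. The share was 43.2% and 57.5% in T1 and 72.1% and 60.0% in T2. Within the whole series, pm replicate 2 was therefore not the lowest. What part these differences have in the results was not tested. The labels name replicates without saying whether they are separate cultures, so p-values measure the spread between these libraries, and with 2 libraries a group an exact permutation test cannot give less than 0.33. Levels are given as molecules per 1000000 molecules of a library on the nuclear chromosomes (CPM). They are relative levels, and fewer cells with a transcript and less of it per cell cannot be told apart in such pools.

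T3 and pm held largely different pools of molecules. Bins called higher in T3 gave 69.9% and 71.1% of all molecules in T3, against 18.9% and 17.0% in pm. Bins called lower gave 2.66% and 2.50% in T3, against 35.6% and 37.7% in pm. Since the classes were set by the T3 and pm libraries themselves, these shares are a description of size and carry no test. The bins called higher held 16.7% and 16.2% of the molecules in T1 and 13.4% and 17.4% in T2, which is near the pm share. The bins called lower held 22.5% and 23.9% in T1 and 18.9% and 16.9% in T2, so the meiotic pools lay between T3 and pm for this class.

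**Figure D1:**
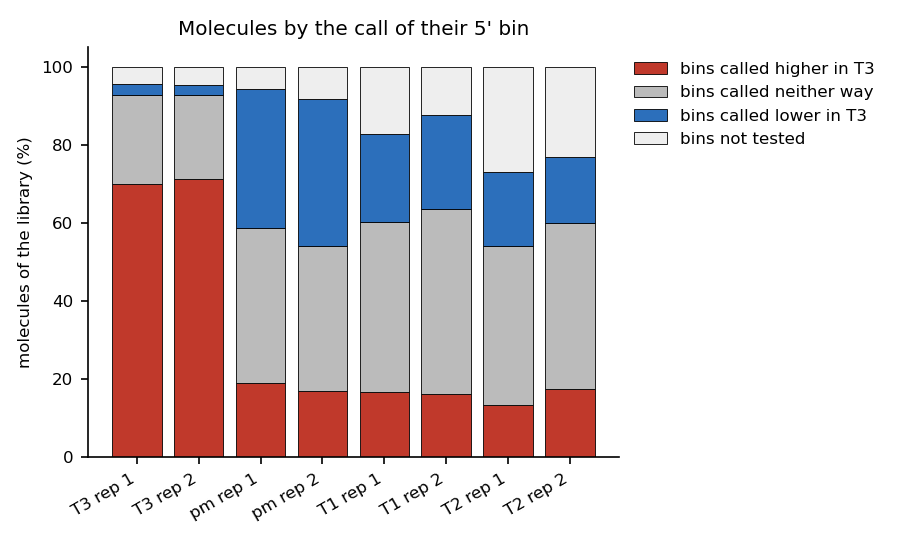
Share of each library's molecules (%, y axis) by the call of their 5′ bin, for the 2 replicates of T3, pm, T1, and T2 (x axis). Bins called higher in T3 than in pm fill 69.9% and 71.1% of the T3 bars, against 18.9% and 17.0% of the pm bars.

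Of 8061 5′ bins tested, 1651 were called higher in T3 (20.5% of the bins tested) and 1656 were called lower (20.5%), 41% in all. A call needs a Benjamini-Hochberg adjusted p under 0.05 in limma voom and a change of at least 2-fold. The median log2 fold change was 3.45 for the bins called higher and −3.46 for those called lower, beside −0.24 for all bins tested. A change of at least 8-fold was fitted for 1118 of the bins called higher and for 1211 of those called lower. In 1614 of the bins called higher and in all 1656 called lower, both T3 libraries lay on one side of both pm libraries in CPM, against 6054 of all 8061 bins. Bins with no molecule in a pool were mostly bins without T3 molecules. Both T3 libraries had no molecule in 759 of the tested bins, 652 of which were called lower, and both pm libraries had none in 31, all 31 called higher. Such a bin passed the filter of a mean of at least 5 molecules only through the other pool, so its direction was fixed in advance. The pm pool also held more molecules, 1916878 against 1409141 in T3. These counts are therefore a description.

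The balance of rises and falls depends on how libraries are scaled. With libraries scaled by the median of ratios, the counts are those above. Scaling by the total gave 1132 bins called higher and 2527 lower, and by spike-in molecules 1019 and 2466. Under these scalings the median of all bins was −1.0 and −1.09. Each T3 library also mattered for the count of falls. Without T3 replicate 1 there were 1127 bins called higher and 456 lower, and without T3 replicate 2 there were 1226 and 609. With pm replicate 1 left out they were 1288 and 1894, and with pm replicate 2 left out 1303 and 1127. Of the 456 and 609 bins called lower without a T3 library, 452 and 603 were among the 1656.

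**Figure D2:**
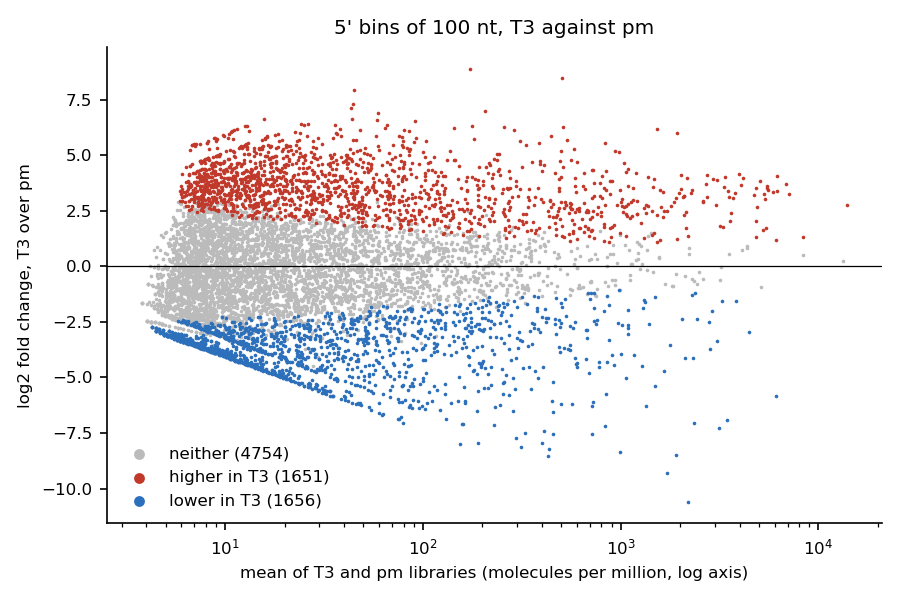
Log2 fold change of T3 over pm (y axis) against the mean of the 4 libraries in CPM (x axis, log scale) for 8061 5′ bins, each a point. The 1651 bins called higher and the 1656 called lower are coloured, and the lower edge on the left is formed by bins without T3 molecules.

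The T3 pool was more concentrated on few starts than the pm pool. The 100 most used 5′ bins of each library held 48.0% and 49.4% of the molecules in T3, against 33.5% and 35.2% in pm (48.7% ± 0.9 and 34.4% ± 1.2, SD, n = 2 each), and the difference of 14.3 points was larger than the spread between replicates. The share was 23.9% and 24.1% in T1 and 37.9% and 33.5% in T2. Of the 100 tested bins with the highest mean CPM in T3, 89 were called higher and 11 neither way, beside 20.5% of all bins tested in each direction. Of the 100 highest in pm, 21 were called higher, 49 lower, and 30 neither way. The lists were picked by level in the pools that the call compares, which favours these directions, so their counts are a description. They share 32 bins, 32.0% of each.

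The most used 5′ bin of T3 was chr12:351001-351100 (minus strand), with 18541 and 26159 CPM in T3, against 4234 and 6738 in pm (log2 fold change 2.75 ± 0.36 (SE), adjusted p = 0.000117). Its molecules were short, with a median length of 529 nt, and 65.4% of them started at position 351066. T1 had 1212 and 455 and T2 499.9 and 275 CPM there, so this start was lowest in the meiotic pools. Its log2 fold change was 1.99 with libraries scaled by the total and 1.91 by spike-in molecules. CPM are scaled by the total, so fitted fold changes lie above the fold of the mean CPM at every 5′ bin named here. The second, chr02:575601-575700 (minus strand), had 11503 and 12387 CPM in T3, against 2518 and 1064 in pm (log2 fold change 3.72 ± 0.34 (SE), adjusted p = 8.53e-06), and 99.0% of its molecules ended in the bin chr02:574401-574500, with a median length of 1183 nt. At chr02:587201-587300 (plus strand), T3 had 11159 and 10723 CPM, against 2072 and 698 in pm (log2 fold change 4.06 ± 0.39 (SE), adjusted p = 1.3e-05). At chr07:316201-316300 (plus strand), T3 had 11591 and 11704 CPM, against 3652 and 1404 in pm (log2 fold change 3.23 ± 0.35 (SE), adjusted p = 2.74e-05), with a median length of 1062 nt. These 4 bins had the largest gains in CPM of all bins called. At each of them both T3 libraries were above both pm libraries, and at the last 3 pm replicate 1 was more than 2-fold above pm replicate 2.

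Among called bins with a mean of at least 50 molecules and no overlap between T3 and pm, these starts had the largest rises. Bins within 2000 nt of one already listed were left out, and pm used the listed starts little or not at all. The bin chr02:587301-587400, left out for lying near chr02:587701-587800, had 387 and 202 molecules in T3 and 4 and 5 in pm (log2 fold change 7.0). At chr02:587701-587800 (plus strand), T3 had 306 and 183 molecules and pm 2 and 0, which is 357 and 331 CPM in T3, against 3.30 and 0 in pm (log2 fold change 8.89 ± 0.92 (SE), adjusted p = 2.13e-05). The ratio of T3 to pm in summed molecules was 333 (95% exact counting interval 91.6 to 2754). Here and below, such a ratio takes the molecules summed over both replicates, each sum divided by all molecules of those replicates, and so differs from a ratio of mean CPM. This bin lies 500 nt downstream of the strong start at chr02:587201-587300, inside its transcript, and 60.9% of its molecules began at position 587728. At chr05:180101-180200 (plus strand), T3 had 733 and 638 molecules and pm 1 and 10 (log2 fold change 8.47 ± 0.79 (SE), adjusted p = 1.09e-05), and 83.7% started at position 180189. This start was already in use in meiosis, with 623 and 422 CPM in T1 and 317 and 315 in T2, beside 856 and 1155 in T3 and 1.65 and 7.63 in pm. At chr04:569701-569800 (plus strand), T3 had 204 and 66 molecules and pm 3 and 2 (log2 fold change 6.52 ± 0.84 (SE), adjusted p = 0.000115), while T1 and T2 had 1 molecule in each library. Its starts were spread, with 16.7% at the most used position. At chr09:215001-215100 (minus strand), T3 had 317 and 178 molecules and pm 2 and 15 (log2 fold change 6.31 ± 0.74 (SE), adjusted p = 5.5e-05), and 98.0% of the molecules ended in chr09:214401-214500. At chr09:301501-301600 (plus strand), T3 had 382 and 309 molecules and pm 7 and 12 (log2 fold change 6.29 ± 0.65 (SE), adjusted p = 2.13e-05). At chr07:283001-283100 (plus strand), T3 had 812 and 579 molecules and pm 8 and 39 (log2 fold change 6.28 ± 0.67 (SE), adjusted p = 2.6e-05). Apart from chr05:180101-180200, these bins stayed at or under 22.0 CPM in every T1 and T2 library, so they were high in T3 alone among the 4 pools. The bins chr09:215001-215100 and chr09:301501-301600 lie downstream, on the same strand, of chr09:215401-215500 and chr09:301101-301200, which were also called higher. In both upstream bins, and in chr02:587201-587300, most first reads stop at 1 shared position, a pattern described below. These positions are 215459, 301137, and 587328. Whether the bins downstream of them are starts of shorter transcripts was not tested.

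The largest falls, chosen in the same way, were at starts that T3 had all but lost. With so few T3 molecules the fitted fold change depends on the added prior count, so the ratio of summed molecules is given as well where T3 had 1 to 3 of them, with intervals that cover counting error only. At chr09:231201-231300 (minus strand), there were 2 and 0 molecules in T3 and 3068 and 4901 in pm (log2 fold change −10.59 ± 0.86 (SE), adjusted p = 4.75e-06). In CPM this is 2.33 and 0 in T3 and 5060 and 3739.6 in pm, with 553 and 832 in T1 and 579 and 444 in T2. T3 over pm in summed molecules came to 0.000341 (95% exact counting interval 4.13e-05 to 0.00123). At chr12:897101-897200 (plus strand), T3 had 2 and 1 molecules and pm 2815 and 2859 (log2 fold change −9.30 ± 0.89 (SE), adjusted p = 1.2e-05). T1 had 220.2 and 316 and T2 56.9 and 59.3 CPM, so the meiotic pools lay between T3 and pm. As a ratio of summed molecules, T3 over pm was 0.000719 (95% exact counting interval 0.000148 to 0.0021). At chr07:952301-952400 (minus strand), T3 had 0 and 1 molecules and pm 253 and 1696 (log2 fold change −8.55 ± 1.08 (SE), adjusted p = 9.19e-05), and both meiotic pools were low too, with 8.24 and 11.4 CPM in T1 and 18.0 and 11.6 in T2. The ratio of T3 to pm in summed molecules was 0.000698 (95% exact counting interval 1.77e-05 to 0.00389). At chr13:453701-453800 (plus strand), T3 had 7 and 2 molecules and pm 1657 and 6438 (log2 fold change −8.47 ± 1.13 (SE), adjusted p = 0.000137), from transcripts with a median length of 542 nt. At chr13:587701-587800 (plus strand), T3 had 3 and 1 molecules and pm 539 and 4039 (log2 fold change −8.33 ± 1.27 (SE), adjusted p = 0.000370), from transcripts with a median length of 376 nt. At chr16:830201-830300 (minus strand), T3 had 0 and 2 molecules and pm 251 and 1729 (log2 fold change −8.20 ± 1.55 (SE), adjusted p = 0.00135), with 89.5 and 122 CPM in T1 and 871 and 134 in T2. T3 over pm in summed molecules came to 0.00137 (95% exact counting interval 0.000166 to 0.00497). At 3 of these 6 starts (chr07:952301-952400, chr13:587701-587800, and chr16:830201-830300) pm replicate 2 was more than 3-fold above pm replicate 1 in CPM.

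**Figure D3:**
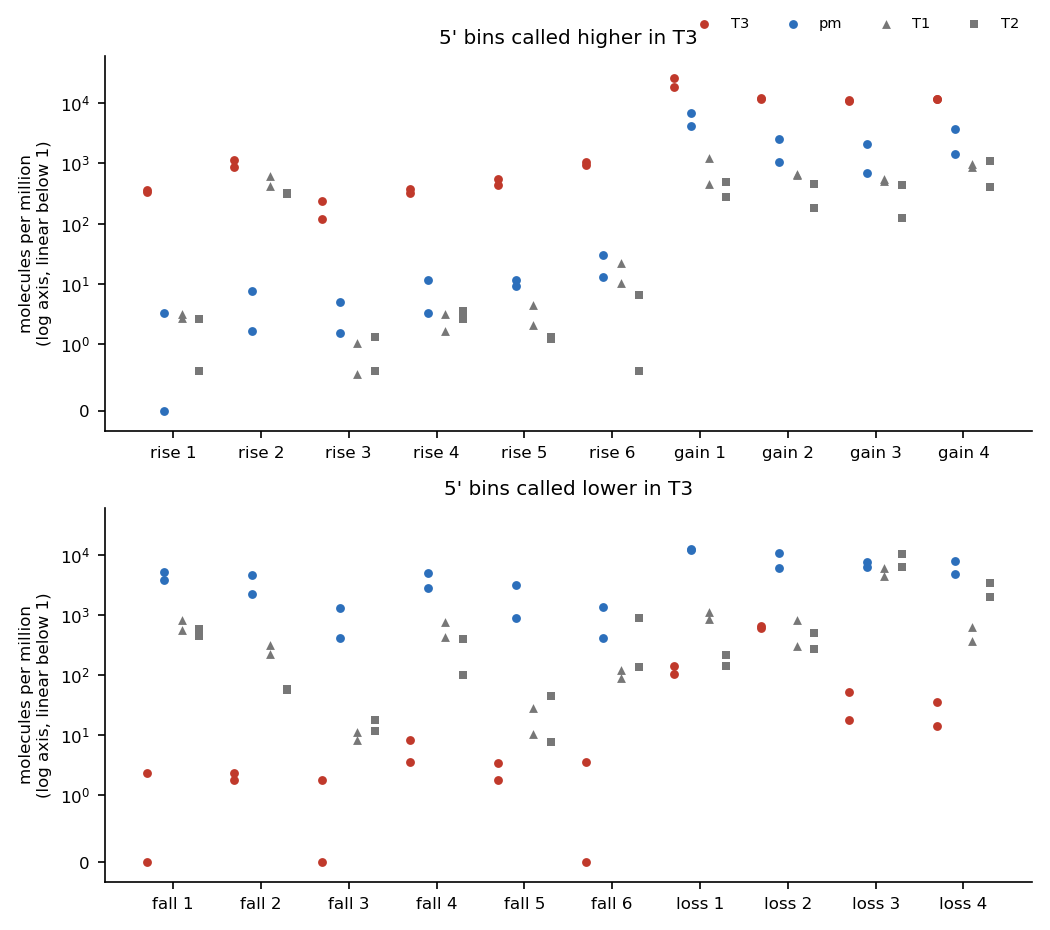
Level in CPM (y axis, log scale, linear below 1) in each of 2 replicates of T3, pm, T1, and T2 for the 5′ bins with the largest rise, gain, fall, and loss, numbered in the order in which the text gives each set. In every bin shown, both T3 points lie on one side of both pm points, which was a condition for choosing the rises and falls.

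Some of the most used starts of pm were also called lower. The largest loss in CPM was at chr13:850201-850300 (minus strand), with 140.1 and 105 in T3, against 12150 and 11888 in pm (log2 fold change −5.84 ± 0.45 (SE), adjusted p = 4.75e-06). It was the second most used start of pm, and 39.8% of its molecules began at position 850267, with a median length of 1205 nt. At chr02:355601-355700 (minus strand), T3 had 599.9 and 648 CPM, against 5965 and 10702 in pm (log2 fold change −2.94 ± 0.51 (SE), adjusted p = 0.000775), and T1 (806 and 303) and T2 (499 and 271) were near the T3 level. The start at chr03:147201-147300 (minus strand) behaved otherwise in meiosis, with 4327 and 5990.5 CPM in T1 and 10135 and 6174 in T2, beside 51.4 and 18.1 in T3 and 7592 and 6222 in pm (log2 fold change −6.94 ± 0.80 (SE), adjusted p = 4.62e-05 for T3 over pm). At chr12:733601-733700 (minus strand), T3 had 35.0 and 14.5 CPM and pm 4696 and 7868 (log2 fold change −7.25 ± 0.87 (SE), adjusted p = 5.82e-05), with 370.2 and 632 in T1 and 3307 and 1971 in T2. T3 was below both pm libraries at all 4 bins, whereas T1 and T2 ranged from below the T3 level to above the pm level. The most used start of pm did not pass the test. At chr07:873701-873800 (minus strand), T3 had 12291 and 9519 CPM and pm 17022 and 14477 (log2 fold change 0.23 ± 0.23 (SE), adjusted p = 0.427), and its log2 fold change was −0.54 with libraries scaled by the total, −0.62 by spike-in molecules, and −0.089 with the T3 and pm libraries alone. At chr11:339901-340000 (minus strand), the third of pm, T3 had 8088 and 7149 and pm 8797 and 9269 CPM (log2 fold change 0.52 ± 0.23 (SE), adjusted p = 0.0820), with −0.24 by the total and −0.32 by spike-in molecules. The direction of both is therefore not settled. Both starts were low in the meiotic pools, with 479 and 345 CPM in T1 and 119 and 108 in T2 at the first and 332 and 250.4 in T1 and 113 and 99.3 in T2 at the second.

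The 3′ ends showed a like balance, from the same molecules. Of 7449 3′ bins tested, 1424 were called higher in T3 (19.1%) and 1419 lower (19%), 38.2% in all, with median log2 fold changes of 3.35 and −3.48. Of the 1651 5′ bins called higher, 1493 had their most frequent 3′ end in a 3′ bin that was also called higher, and of the 1656 called lower, 1335 in one called lower. These are the same molecules counted at both ends, so the counts are no independent evidence. The 3′ bin with the largest rise, chr05:181101-181200 (plus strand), had 241 and 176 molecules in T3 and 0 and 2 in pm (log2 fold change 8.60 ± 0.83 (SE), adjusted p = 6.92e-05), and 97.4% of them started in chr05:180101-180200. As a ratio of summed molecules, T3 over pm was 284 (95% exact counting interval 78 to 2349.7). At chr14:295701-295800 (plus strand), T3 had 186 and 140 molecules and pm 1 and 1 (log2 fold change 7.86 ± 0.79 (SE), adjusted p = 7.03e-05), most of them from the start chr14:294801-294900. The ratio of T3 to pm in summed molecules was 222 (95% exact counting interval 60.9 to 1839). At chr04:570301-570400 (plus strand), the end of the transcript from chr04:569701-569800, T3 had 202 and 68 and pm 2 and 2 (log2 fold change 6.72 ± 0.83 (SE), adjusted p = 0.000188). The largest fall was at chr09:230501-230600 (minus strand), where the molecules from chr09:231201-231300 end, with 3 and 0 in T3 and 3046 and 5263 in pm (log2 fold change −10.42 ± 0.87 (SE), adjusted p = 6.74e-05). T3 over pm in summed molecules came to 0.000491 (95% exact counting interval 0.000101 to 0.00144). At chr12:898001-898100 (plus strand), T3 had 2 and 0 and pm 2617 and 2951 molecules (log2 fold change −10.11 ± 0.89 (SE), adjusted p = 6.86e-05). As a ratio of summed molecules, T3 over pm was 0.000489 (95% exact counting interval 5.92e-05 to 0.00177). At chr13:454301-454400 (plus strand), T3 had 4 and 1 and pm 1505 and 6474 (log2 fold change −9.18 ± 1.29 (SE), adjusted p = 0.000414). These 2 bins hold the ends of molecules from chr12:897101-897200 and chr13:453701-453800, named above for their 5′ ends. Without T3 replicate 1 the 3′ bins called were 989 higher and 356 lower, without T3 replicate 2 993 and 483, 1072 and 1408 with pm replicate 1 left out, and 868 and 792 with pm replicate 2 left out. Scaling by the total gave 976 and 2250.

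Starts whose first reads mostly stop at one position gave a larger share of the molecules in T3 than in pm. In most 5′ bins the aligned part of the first read ends at a place that moves with its start. In 155 bins, at least 50% of the first reads were under 60 nt and stopped at one shared position whatever their start. They were found among 2624 tested bins with at least 80 molecules over the 8 libraries and a stop shared by molecules from at least 5 start positions. In 2354 of the 2624 the share was under 10%, and the values nearest the limit were 50.0% and 49.5%. The pattern and its limits were chosen after the alignments were seen, so it is given with no test. In budding yeast few genes have introns, many of those that do encode ribosomal proteins, and the intron often lies close to the start codon. Whether the shared stops are splice sites was not tested, since no SK1 sequence was used.

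These 155 bins gave 14.8% and 14.5% of the molecules in T3, against 4.64% and 4.04% in pm, and 2.32% and 2.61% in T1 and 1.43% and 1.79% in T2. The 155 bins have 139 distinct stop positions, so some neighbouring bins share a stop and are not separate starts. Of the 155, 85 were called higher (54.8%) and 13 lower (8.39%), beside 19.9% and 24.2% of the 2624 bins considered. Their median log2 fold change was 1.99, beside −0.24 for all bins tested. The count called higher lay between 64 and 89 over 17 other settings of the fit, and it was lowest when libraries were scaled by spike-in molecules. The count called lower was 24 with libraries scaled by the total and 3 without either T3 library in turn. The stop lay at a median of 36 nt from the most used start, with quartiles of 30.5 and 44.5 nt. The largest of these bins in T3 are chr02:575601-575700, with 92.6% of the first reads stopping at position 575582 from 40 start positions, and chr02:587201-587300, with 87.7% stopping at 587328 from 31. Next were chr13:116901-117000, with 7364 and 5910 molecules in T3, against 1006 and 1796 in pm, and chr07:371701-371800, with 5031 and 3382 in T3, against 671 and 1116 in pm. All 4 were called higher.

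Reads that ran at least 10 nt past the shared stop without a break were rare. They were 0.608% and 0.856% of the molecules that either stopped or ran past in T3, against 1.42% and 1.32% in pm, 2.21% and 2.28% in T1, and 3.03% and 1.89% in T2. The pools differ in which of these bins they use, so whether the share changed within bins cannot be read from these values. Of 82 bins with at least 30 such molecules in each T3 and pm library, both T3 libraries had a higher share running past than both pm libraries in 18 and a lower one in 14, and the libraries overlapped in 50. First reads under 60 nt were 32.3% and 28.0% of all in T3, against 21.6% and 24.9% in pm.

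**Figure D4:**
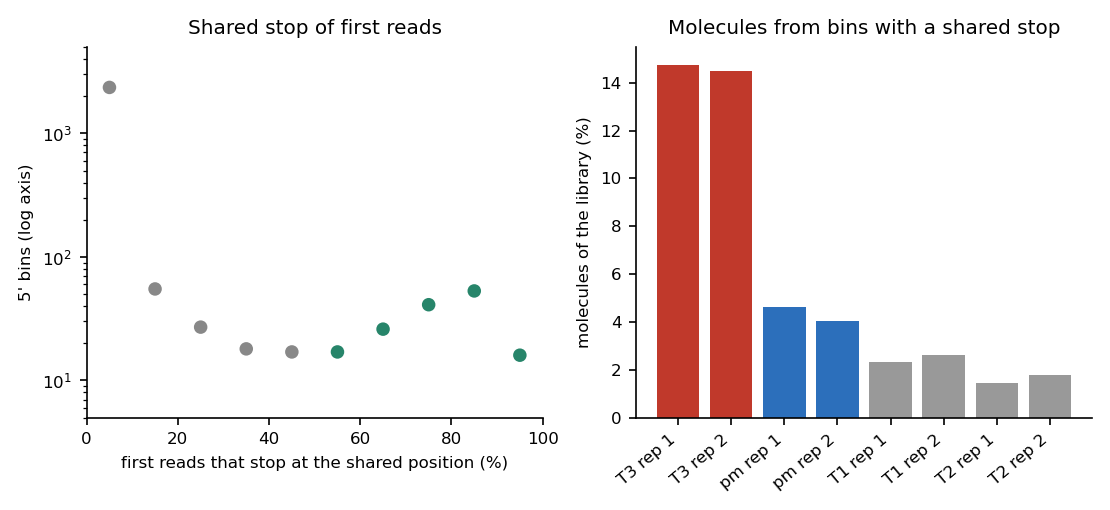
Left, number of 5′ bins (y axis, log scale) by the share of first reads that stop at one position (%, x axis, steps of 10), with bins at 50% or more in green. Right, share of each library's molecules (%, y axis) from the 155 bins at 50% or more, which is 14.8% and 14.5% in T3, against 4.64% and 4.04% in pm.

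Within units that share a 3′ end, 38 starts were called changed in usage between T3 and pm. Start usage was compared for 5430 pairs of a 5′ bin and a 3′ region, in 1639 regions with more than 1 start, where the main start is the one with most molecules in pm. limma's diffSplice called 38 of them (0.7%), 11 raised and 27 lowered in T3, beside 408 at an unadjusted p under 0.05. The 38 lie in 33 regions and are not all separate events. In a region with 2 starts, the rise of 1 is the fall of the other at the same p, and both are counted. Of the 38, 14 were main starts, 12 lay 100 nt from the main start, 7 lay at least 200 nt upstream of it (2 raised and 5 lowered), and 5 at least 200 nt downstream (3 raised and 2 lowered). In 3 of the 38, the T3 libraries together had fewer than 4 molecules in the unit, and a start that was not called is not shown to be unchanged. No pair was called without T3 replicate 1, where 249 had an unadjusted p under 0.05, and 3 were called without T3 replicate 2. Leaving out pm replicate 1 gave 20 calls and leaving out pm replicate 2 gave 44, and the T3 and pm libraries alone gave 17.

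Among upstream starts with a mean of at least 20 molecules, the largest raised usage was in a unit on chr15, minus strand. Its upstream bin chr15:424601-424700, 300 nt from the main start, gave 27 and 14 molecules in T3 and 16 and 30 in pm, while the main start chr15:424301-424400 gave 1 and 0 in T3 and 23 and 57 in pm. The upstream start thus took 96.4 and 100% of the unit in T3, against 41.0 and 34.5% in pm (log2 difference in usage 5.27, adjusted p = 0.0242, diffSplice). The molecules of the upstream start overlapped between T3 and pm, and those of the main start did not. A longer extension, chosen after its values were seen because its mean is under 20 molecules, was at chr15:475101-475200 (plus strand), 1200 nt upstream of the main start chr15:476301-476400. It gave 36 and 12 molecules in T3 and 1 and 1 in pm, and the main start 0 and 1 in T3 and 9 and 33 in pm (8.28, adjusted p = 0.00451). T1 had 19 and 18 molecules from the upstream start and 1 and 2 from the main start, while T2 had 1 and 1 from the upstream start and 3 and 2 from the main start. The other upstream starts named by rule did not pass. The bin chr02:159201-159300, 1000 nt upstream, took 95.2 and 95.8% of its unit in T3, against 50.0 and 43.4% in pm (adjusted p = 0.284), and chr05:26801-26900 took 87.0 and 84.4% in T3, against 34.4 and 47.2% in pm (adjusted p = 0.502).

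Usage was raised in T3 at 3 downstream bins at least 200 nt from the main start, with molecules that end in the same region. At chr02:587701-587800, named above for its rise, usage was 2.86 and 2.75% in T3, against 0.157 and 0% in pm (3.95, adjusted p = 0.0338). At chr08:368801-368900 (minus strand), 500 nt downstream of chr08:369301-369400, T3 had 425 and 351 molecules, or 16.6 and 22.6% of the unit, and pm 5 and 24, or 0.767 and 2.75% (3.38, adjusted p = 0.0489). The main starts of both units, chr02:587201-587300 and chr08:369301-369400, have a shared stop of first reads, at 587328 and 369297. Whether these downstream bins are starts of shorter transcripts was not tested. The third bin raised, chr12:85001-85100 (minus strand), rests on few molecules. There usage was 4.16 and 2.61% in T3, against 0.0920 and 0.290% in pm, from 15 and 7 molecules in T3 and 1 and 10 in pm. The downstream bin chr13:83601-83700, with 37.0 and 44.7% in T3, against 3.85 and 4.26% in pm, did not pass (adjusted p = 0.366). Upstream starts were lowered in T3 at 5 bins, picked after the values were seen, and 4 of them had no T3 molecule. At chr10:122101-122200 (minus strand), T3 had 0 and 0 and pm 174 and 423 molecules, 16.3 and 14.5% of the unit in pm, while the main start 200 nt downstream had 336 and 270 in T3 and 807 and 2229 in pm (−6.26, adjusted p = 0.000270). At chr16:620601-620700 (plus strand), 500 nt upstream of its main start, T3 had 0 and 0 and pm 44 and 33, against 540 and 418 from the main start in T3 and 345 and 416 in pm (−6.40, adjusted p = 0.00600). The others were chr15:285001-285100, at 0 and 0% in T3 and 18.8 and 15.9% in pm, chr04:1253901-1254000, at 0 and 0% in T3 and 7.49 and 4.95% in pm, and chr16:676301-676400, at 4.45 and 0.560% in T3 and 34.2 and 19.5% in pm.

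**Figure D5:**
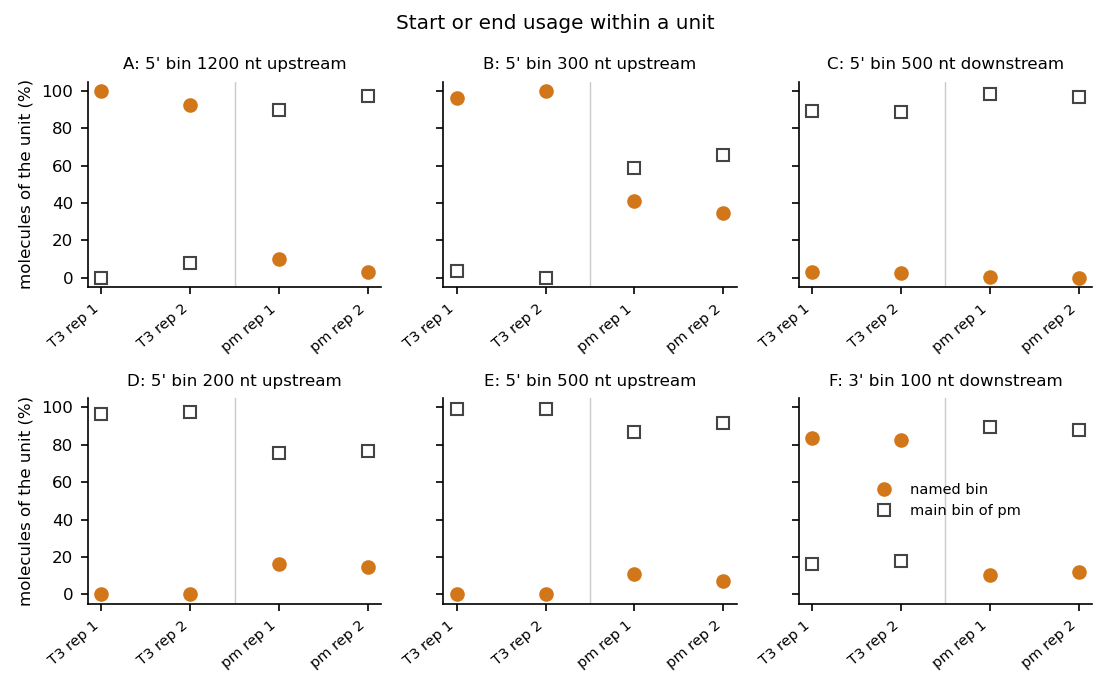
Share of a unit's molecules (%, y axis) in each T3 and pm library at a named bin (filled circles) and at the main bin of pm (open squares). Panels A to E are starts at chr15:475101-475200, chr15:424601-424700, chr02:587701-587800, chr10:122101-122200, and chr16:620601-620700, and F is the 3′ bin chr06:117801-117900. In A, B, and F the named bin is the larger one in T3 and the main bin in pm.

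Of 4853 pairs of a 5′ bin and a 3′ bin, in 2020 5′ bins, diffSplice called end usage changed at 9 (0.185%), 3 raised and 6 lowered, beside 536 at an unadjusted p under 0.05. The 9 lie in 7 5′ bins. At chr06:118501-118600, which has 2 ends, 1 change is counted both as raised and as lowered. There were 3 calls without T3 replicate 1, 2 without T3 replicate 2, 6 when pm replicate 1 was left out, and 1 when pm replicate 2 was left out. In 2 of the 9, the 2 T3 libraries together had fewer than 4 molecules from the start, so their T3 usage is not informative. A shift of 100 nt was seen at the start chr06:118501-118600 (minus strand), chosen after its values were seen. Ends in chr06:117801-117900 gave 103 and 94 molecules in T3 and 12 and 16 in pm, and ends in chr06:117901-118000 gave 20 and 20 in T3 and 104 and 117 in pm. The distal end thus took 83.7 and 82.5% in T3, against 10.3 and 12.0% in pm (log2 difference in usage 5.24, adjusted p = 0.0184), with 490 and 190 distal against 666 and 243 proximal molecules in T1 and 559 and 445 against 2619 and 969 in T2. At chr07:873701-873800, the most used start of pm, early ends in chr07:873101-873200, 600 nt before the main end, were found for 0 and 2 molecules in T3 and 46 and 115 in pm (−4.73, adjusted p = 0.00152), which is at most 0.607% of its molecules. Late ends in chr07:872401-872500, picked after the values were seen, were found for 49 and 28 in T3 and 4 and 2 in pm (5.54, adjusted p = 0.000207). The other ends named by rule did not pass, and chr15:314901-315000 took 53.6 and 79.2% of the molecules from its start in T3, against 18.8 and 5.88% in pm (adjusted p = 0.200), and chr02:589701-589800 took 4.14 and 17.1% in T3, against 0 and 0.573% in pm (adjusted p = 0.354).

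At single nucleotides, most strong starts kept their position. In 687 5′ bins with at least 50 molecules in each T3 and pm library, the most used position was the same in all 4 libraries in 428 (62.3%). In 39 (5.68%), both T3 libraries agreed on one position and both pm libraries on another, while the 2 T3 libraries differed from each other in 110 and the 2 pm libraries in 154. Of the 39, the T3 position lay downstream in 32 and upstream in 7, at a median distance of 11 nt. These counts have no test. The largest change of share, picked after the values were seen, was in chr09:412001-412100 (minus strand), where position 412020 took 42.9% and 42.6% in T3, against 6.00% and 10.9% in pm, and position 412069, 49 nt upstream, took 3.16% and 3.62% in T3, against 49.0% and 46.1% in pm. In chr08:369301-369400 (minus strand), position 369326 took 43.8% and 44.9% in T3, against 18.3% and 18.7% in pm.

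Molecule length differed by less than the spread between replicates. The median length was 908 and 857 nt in T3, against 875 and 827 nt in pm (882.5 ± 36.1 and 851 ± 33.9 nt, SD, n = 2 each). Molecules from bins called higher had medians of 918 and 881 nt in T3, against 913 and 895 nt in pm. Those from bins called lower had medians of 844 and 795 nt in T3, against 866 and 801 nt in pm. Molecules from the 155 bins with a shared stop were longer, with medians of 1051 and 1042 nt in T3, against 944 and 922 nt in pm, measured as the distance between their ends on the genome.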

How the data were processed

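TIF-seq libraries of 4 pools with 2 replicates each were analysed. The authors deposited a list of paired alignments per library, 1 line for each RNA molecule after removal of duplicate unique molecular identifiers (UMI), so the deposited values are positions on the SK1 assembly and no other unit was given. The submitters' processing notes name cutadapt 1.16, STAR 2.5.3a, and bedtools. Ends were counted in bins of 100 nt per strand (Python 3.11.15, pandas 2.3.3), and bins with a mean of at least 5 molecules over the T3 and pm libraries were tested with limma 3.58.1 (voom, R 4.3.3) on all 8 libraries, scaled by the median of ratios. Usage was tested with diffSplice. P-values were adjusted by Benjamini-Hochberg over all bins or pairs of a test. The study's methods tested counts per cluster, and since the files hold positions, counted ends were used here. The bins and lists were chosen with earlier results of these data known. Named were the 6 largest rises and falls in fold (mean of at least 50 molecules, pools not overlapping), the 4 largest gains and losses, the 3 most used bins of T3 and pm, the 3 largest rises and falls of 3′ bins, and for usage 3 upstream starts, 2 downstream starts, and 3 ends at least 200 nt from the main one (mean of at least 20 molecules), none within 2000 nt of another in its list on the same strand. The fits were tested on simulated data, where many set changes were missed. Of 100 changes of 4-fold and 100 of 8-fold, 21 and 55 were called for 5′ bins. For 3′ bins these were 13 and 46, and for start usage 17 and 36. Among features not changed, 4 5′ bins, 1 3′ bin, and 23 start usages were called. Other starts in the unit of a changed start count as not changed there. No other feature was changed between pools, so few of the 8061 5′ bins differed, whereas 41% were called in the data. The shares called in the simulation therefore need not hold for the data. Reads with a gap were not analysed, since no first read spans more than 70 nt and no second read more than 78 nt.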

Additional observations from a re-analysis of the deposited data

How the results depend on the processing

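All 20 called of the 22 named 5′ bins and all 6 named 3′ bins kept their direction and call under the 17 alternatives that use the same bins, whereas each of the 12 called start usages and 9 called end usages named or described lost its call under at least 1. For the bins not called, the log2 fold change turned to −0.54 by the total, −0.62 by spike-in molecules, and −0.089 with the T3 and pm libraries alone at chr07:873701-873800, and to −0.24 and −0.32 by the first 2 scalings at chr11:339901-340000. Scaling by spike-in molecules gave 1019 5′ bins called higher, 881 3′ bins called higher, 2176 3′ bins called lower, and 24 start usages. Scaling by the total gave 2527 5′ bins and 2250 3′ bins called lower and 15 end usages. With no filter on low counts there were 3307 5′ and 2441 3′ bins called higher, 868 start usages, and 1169 end usages. With a mean of at least 20 molecules there were 893 5′ bins higher and 701 lower, 919 3′ bins higher and 699 lower, and 22 end usages, with fewer bins tested. Bins shifted by 50 nt gave 69 start usages, the T3 and pm libraries alone 17, limma-trend 27 end usages, and 1 molecule per 5′ end and UMI 15. The difference in share of the most used bins was 11.4 points for 50 bins and 15.6 for 200 bins. Bins with another most used position numbered 64 at a minimum of 20 molecules and 24 at 100. Leaving out 1 library at a time gave 1127 to 1783 5′ bins higher and 456 to 1894 lower, 868 to 1674 3′ bins higher and 356 to 1829 lower, 0 to 55 start usages, and 1 to 14 end usages. The lone library of a pool is then assumed to vary like the others, and the fits without a T1 or T2 library were chosen after the data were seen. The causes of these shifts were not tested.

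Whether replicate numbers pair the libraries is not known. The correlation of same-numbered deviations was −0.370 to 0.203 over the 6 pairs of pools, and 0.203 for pm and T3. This cannot settle the question, since the bins are not independent. With replicate number as a block there were 1519 5′ bins higher and 1550 lower, 1326 and 1327 3′ bins, 24 start usages, and 9 end usages. Alternatives on reads with a gap were not run, as there were none. With 2 libraries a pool, depth limits bins near the filter, and a bin with no molecule in a T3 library may hold up to 3 counts.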

Other observations

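Starts near chromosome ends were called lower more often than higher. Within 30 kb of an end, 47 of 365 tested 5′ bins (12.9%) were called higher in T3 and 127 (34.8%) lower, beside 20.5% of all tested bins in each direction. With libraries scaled by the total, 27 were called higher and 181 lower, when 31.4% of all bins were called lower. With either T3 library left out, fewer of these bins were called in each direction, and fewer of all tested bins as well. Falls still outnumbered rises near the ends, whereas rises outnumbered falls over all bins. Within 10 kb 1 of 60 was called higher and 20 lower. These are counts made after the data were seen, with no test. Molecules shorter than 200 nt made up 1.83% and 4.12% of T3, against 2.11% and 2.34% of pm, so the 2 T3 libraries differed from each other by more than T3 did from pm.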
